A study of Mus musculus with 8 samples.

Results

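Mitochondrial ribosomal proteins are the nuclear-encoded proteins of the ribosome that works inside mitochondria. Their genes were taken from the count table as every symbol of Mrpl or Mrps followed by a number and, in some, a letter a to c, which gave 77 of 38293 genes, 48 with Mrpl and 29 with Mrps symbols. Another annotated symbol of that form, Mrpl33, was not analysed here. By the position of each protein in solved mitoribosome structures, 50 of the 77 belong to the large subunit and 26 to the small one, since Mrps30 (mL65) and Mrps18a (mL66) sit in the large subunit despite their symbols. The remaining gene, Mrps36, encodes a protein now assigned to the 2-oxoglutarate dehydrogenase complex of the citric acid cycle. By unified ribosomal protein name, 45 of the ribosomal ones are named after a bacterial homologue and 31 as specific to mitochondria, the classes used below. Mrps18a and Mrps18b are among the 31 by name, though they descend from a bacterial protein.

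The mitoribosome translates only the mRNAs encoded in mitochondrial DNA, all of which specify core subunits of the respiratory chain and ATP synthase. Its proteins are made in the cytosol, imported and assembled on mitochondrially encoded ribosomal RNAs, so a working ribosome needs products of both genomes. Heart muscle is dense in mitochondria, and in humans, variants in several of these genes, MRPL3, MRPL44 and MRPS22 among them, cause disease of oxidative phosphorylation that can include cardiomyopathy.

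Ventricle of mice heterozygous for a deletion at position 1755 of the Pkp2 coding sequence (HET, 4 samples) was compared with ventricle of mice carrying only wild-type Pkp2 (WT, 4 samples). The word deletion comes from the series title and design; the samples' own genotype label names position 1755 alone, followed by the base A. Pkp2 encodes plakophilin-2, a plaque protein of the desmosome, and the series addresses loss of desmosomal protein in arrhythmogenic cardiomyopathy. All samples were mixed left and right ventricle from mice aged 8 weeks under standard housing, and poly(A) RNA was sequenced. The labels give no strain or sex and do not state whether each sample is a separate animal. All p-values below therefore reflect only sample-to-sample spread, which may be technical.

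Total counts were 32397302 to 38611008 in HET and 38510257 to 41234883 in WT libraries. Pkp2 levels in CPM (counts scaled for library size by TMM) were 99.2, 88.2, 96.0 and 105.6 in HET, against 169.1, 167.6, 148.5 and 165.7 in WT libraries, so each library matched its label; Pkp2 had a log2 fold change of -0.74 (SE 0.065, adjusted p = 0.00376, edgeR quasi-likelihood test, Benjamini-Hochberg adjusted). Cardiomyocyte genes (Myh6, Actc1, Tnnt2, Tnni3, Ryr2 and Pln) held 6.54% to 6.82% of counts in HET and 6.20% to 6.67% in WT libraries, whereas the atrial genes Sln and Myl7 had at most 4 counts in any library. The other atrial markers with them summed to 0.0218% to 0.0453% of counts in HET and 0.0273% to 0.0353% in WT libraries. Adipocyte genes made up at most 0.000254% of counts in HET and 6.48e-05% in WT libraries, with Lep at 0 counts in all 8. The 2 tested, Adipoq and Cidec, stood at most at 1.2 CPM in any library. Both had higher HET means with overlapping groups, at log2 fold changes of 1.55 (SE 0.63) and 2.06 (SE 0.67), each with an adjusted p of 0.770 by edgeR. Endothelial genes summed to 0.0927% to 0.104% in HET and 0.0959% to 0.119% in WT, fibroblast genes to 0.0640% to 0.0792% in HET and 0.0717% to 0.0802% in WT, and erythroid genes to 0.0296% to 0.0387% in HET and 0.0209% to 0.0516% in WT libraries. WT replicate 3 had the highest share of macrophage genes (0.0202%, others 0.0124% to 0.0146%) and lymphocyte genes (0.00148%, others 0.000705% to 0.000823%) and the lowest share of mitochondrially encoded genes (14.7%, others 17.1% to 19.1%). Its lymphocyte share was mostly Ptprc, at 12.9 CPM against 5.99 to 7.27 CPM in the other libraries. Ms4a1 and Cd3e were also highest in WT replicate 3, whereas Cd79a (0.58 CPM) and Cd3d (2 counts) were not. Single markers whose groups did not overlap were Myh6, with a log2 fold change of 0.12 (SE 0.040), the endothelial Egfl7, with -0.30 (SE 0.075), and the macrophage gene Cd68, with -0.41 (SE 0.13). Each had an adjusted p of 0.770 by edgeR, and 1.7% of all genes were higher and 2.08% lower in HET without overlap. The other genes of these lists had overlapping groups. Their log2 fold changes lay between -0.008 and 0.12 for cardiomyocyte genes and between -0.007 and 0.07 for endothelial genes. For macrophage genes they lay between -0.21 (C1qa) and 0.01 (Cd163). In bulk tissue, fewer cells of a type and less RNA per cell cannot be told apart.

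The 77 genes were spread over 17 chromosomes, with 11 on chromosome 11 and 8 on chromosome 17. Many lay head to head with another gene. Of the 76 genes that could be tested, 33 (43.4%) had a protein-coding neighbour on the opposite strand whose annotated 5′ end was within 1000 bases of their own, against 2034 of 13300 tested protein-coding genes (15.3%). Among these pairs were Mrpl36 with Ndufs6 and Mrpl47 with Ndufb5, whose partners encode subunits of respiratory complex I, Mrpl43 with Twnk, the mitochondrial DNA helicase, and Mrps12 with Sars2, the mitochondrial seryl-tRNA synthetase. Mrpl46 and Mrps11 faced each other and are both mitoribosome genes.

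RefSeq promoter windows (GRCm38.p6, 250 bases before to 50 after the start) were matched for 68 genes. None was matched for Mrpl13, Mrpl15, Mrpl19, Mrpl38, Mrpl4, Mrpl54, Mrps28, Mrps34 and Mrps35. Motifs were searched on both strands for 3 factors known to act at promoters of nuclear genes for mitochondrial proteins. The motif GCGCANGCG of NRF1 (nuclear respiratory factor 1) was in 16 of the 68 windows (23.5%), against 13.5% of 10448 windows of all genes. The ETS motif CCGGAAGT, bound by GABPA (NRF-2), was in 14.7% of members' windows and 8.17% of all windows. The YY1 motif AAGATGGCG was in 11.8% of members' windows and 3.07% of all windows. At least 1 of the 3 was in 47.1% of members' windows and 22.7% of all windows. Other common motifs did not have a higher share: the E-box CACGTG was in 7.35% of members' and 10.1% of all windows, GGGCGG in 34 of 68 members' windows and 64.3% of all windows, and TATAAA in 5.88% of members' and 7.13% of all windows. These shares are descriptions of letters in a window and were not tested, and head-to-head pairs share part of their windows. For Mrps24, Mrpl35 and Mrpl36, which had the YY1 motif, the RefSeq start lay 7979, 3185 and 2496 bases from the start of the gene model.

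The nearest upstream bases outside annotated protein-coding exons are shown for the genes on which later values turn: the markers Mrpl12 and Mrps15, the gene of smallest p (Mrpl9), the only gene with all HET above all WT values (Mrpl50) and 1 of the most variable (Mrpl22), with Mrpl43 as an example of the ETS motif. Each is written 5′ to 3′ towards the gene on the strand given, with NRF1 or ETS matches in capitals.
Mrpl12, chr11:120484533-120484612, plus strand: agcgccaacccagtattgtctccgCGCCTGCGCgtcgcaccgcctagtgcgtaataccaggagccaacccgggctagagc
Mrps15, chr4:126046845-126046924, plus strand: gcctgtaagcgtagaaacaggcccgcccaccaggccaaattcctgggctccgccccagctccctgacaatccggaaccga
Mrpl9, chr3:94443238-94443317, plus strand: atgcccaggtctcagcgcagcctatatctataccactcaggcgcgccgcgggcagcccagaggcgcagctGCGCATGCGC
Mrpl50, chr4:49521094-49521173, minus strand: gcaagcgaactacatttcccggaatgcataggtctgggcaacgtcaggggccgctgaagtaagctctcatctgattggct
Mrpl22, chr11:58171581-58171660, plus strand: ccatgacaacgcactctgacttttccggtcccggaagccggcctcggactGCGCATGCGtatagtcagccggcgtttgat
Mrpl43, chr19:45006443-45006522, minus strand: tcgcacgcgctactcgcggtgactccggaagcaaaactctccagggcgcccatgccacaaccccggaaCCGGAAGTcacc
The NRF1 match of Mrpl12 began 80 bases before its RefSeq start and that of Mrpl22 33 bases before. In Mrpl9, matches on the 2 strands overlapped, and in Mrpl43 the ETS match began 12 bases before the start. Mrps15 and Mrpl50 had none of the 3 motifs anywhere in the 300 bases searched. Mrpl46 and Mrps11 are shown by the 41 bases that separate their RefSeq starts, read on the plus strand towards Mrps11.
Mrpl46 and Mrps11, chr7:78783090-78783130, plus strand: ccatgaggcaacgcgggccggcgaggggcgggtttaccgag

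Mitoribosome genes were well expressed but far from equal in ventricle. Levels are given per length, as TMM-scaled CPM per kilobase of exon, averaged over the 8 libraries. Across the 76 genes these levels ran from 1.77 for Mrpl23 to 115 for Mrpl12, a 65.1-fold range, with a median of 20.3 and quartiles of 9.03 and 31.7. In all, 73 of the 76 lay above 3.65, the median over 13300 tested protein-coding genes. Large-subunit genes had a median level per length of 23.2 and small-subunit genes 13.7. Members named after bacterial homologues (19.0) and those named as mitochondria-specific (21.3) had closer medians. As background, most of these proteins are present once per ribosome, while the stalk protein bL12m, encoded by Mrpl12, is held in several copies and helps to recruit translation factors.

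Mrpl12 had the highest level per length, 113 ± 3.7 in HET and 117 ± 5.5 in WT libraries (SD, n = 4 each). It was followed by Mrps23 (mS23, mitochondria-specific) at 92.4 ± 7.2 in HET and 89.1 ± 6.3 in WT. Mrpl34 (bL34m) and Mrpl28 (bL28m) came next at 80.6 and 79.9 over all libraries, which differed by less than the SDs over libraries of 4.0 and 6.8, and then Mrpl2 (uL2m, close to the peptidyl transferase centre) at 63.2. At the other end, Mrpl23 (uL23m, at the exit of the peptide tunnel) had 1.77 ± 0.13 in HET and 1.76 ± 0.078 in WT. Mrps10 (uS10m) followed at 2.36, Mrpl48 (mL48) at 3.61, Mrpl32 (bL32m) at 4.58 ± 0.28 and Mrps5 (uS5m) at 4.94 ± 0.24 (SD over 8 libraries), and the SD ranges of this pair overlapped. These levels depend on the gene model: with the longest transcript as length, Mrpl23 had 2.32 and Mrpl12 134, a 57.7-fold range, and these genes kept the last and first place. Mrpl48 (6.87), Mrpl32 (7.58) and Mrps5 (7.25) then left the lowest 5, and Mrpl2 (71.7) left the highest 5.

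**Figure D1:**
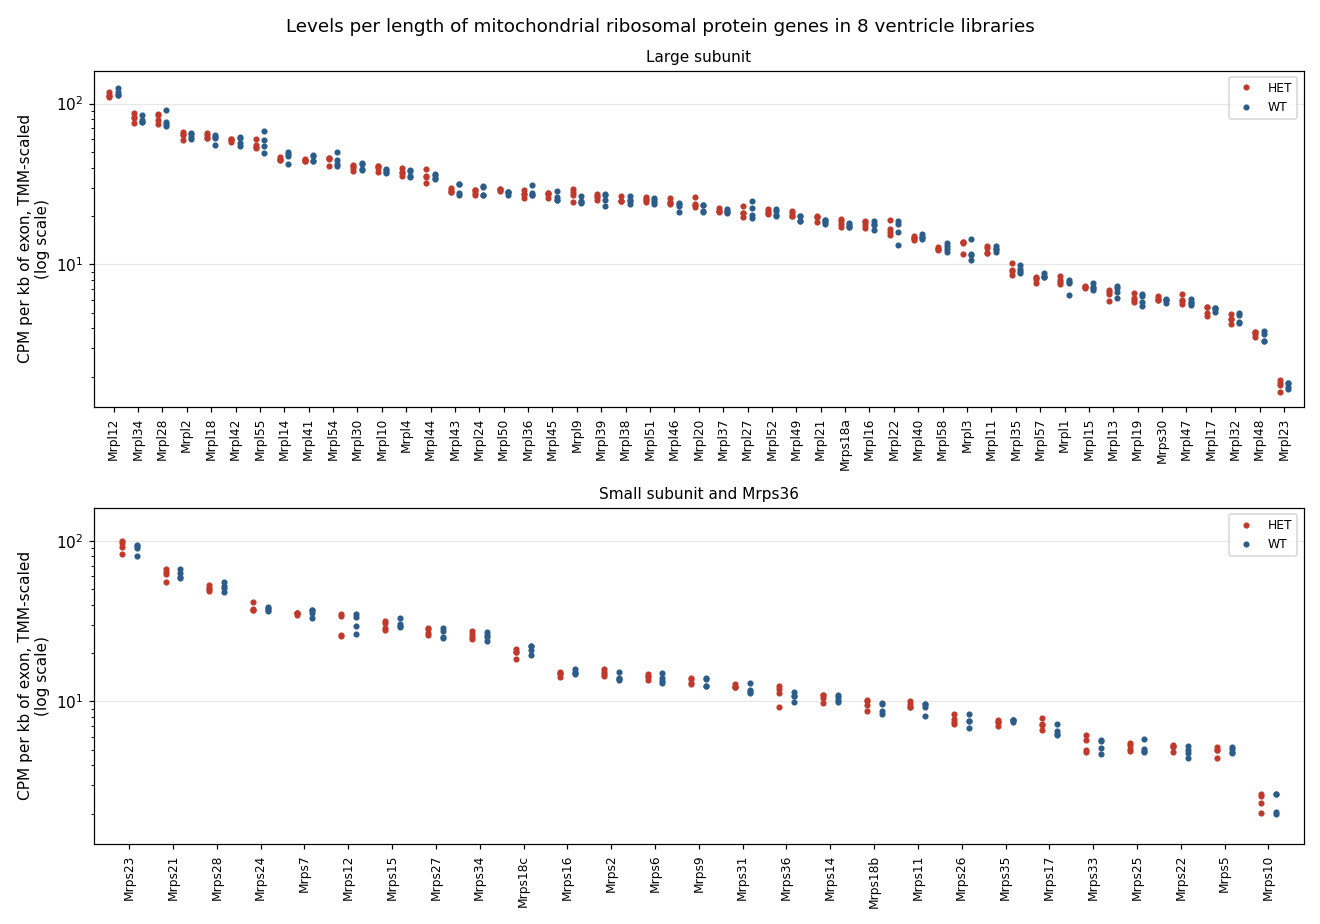
Level per length of 76 mitochondrial ribosomal protein genes (log axis, TMM-scaled CPM per kilobase of exon), each point 1 library, HET in red left of WT in blue, ordered by mean level. Genes run from Mrpl12 at 115 to Mrpl23 at 1.77, and HET and WT points of a gene lie together compared with the 65.1-fold range between genes.

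Between genotypes, no member changed at an adjusted p below 0.05. The count was 0 of 76 with edgeR's quasi-likelihood test, where 1 of 14567 genes (0.00686%), Pkp2, passed. DESeq2 and limma-voom also called 0 members, beside 13 and 1 of 14567 genes. At an unadjusted p below 0.05 edgeR again found 0 members in either direction, against 6.38% of all genes (2.75% higher and 3.63% lower in HET). DESeq2 found 0 members, beside 947 of 14567 genes, and limma-voom 1, Mrpl9, beside 1176 of 14567. The smallest edgeR p among members was 0.0634, and their adjusted p ran from 0.770 to 0.994.

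The intervals were narrow enough to bound the change. Log2 fold changes (HET over WT) ran from -0.08 for Mrps18c to 0.14 for Mrps17. Every 95% interval held 0, and the outermost bounds were -0.33 for Mrps12 and 0.34 for Mrpl3. For 68 of 76 genes the whole interval lay within a 1.2-fold change in either direction and for all 76 within 1.5-fold, while 9 lay within 1.1-fold. The median standard error was 0.058 for members and 0.095 for all genes tested, which were not matched for level, and members had 250 to 9029 counts per library.

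**Figure D2:**
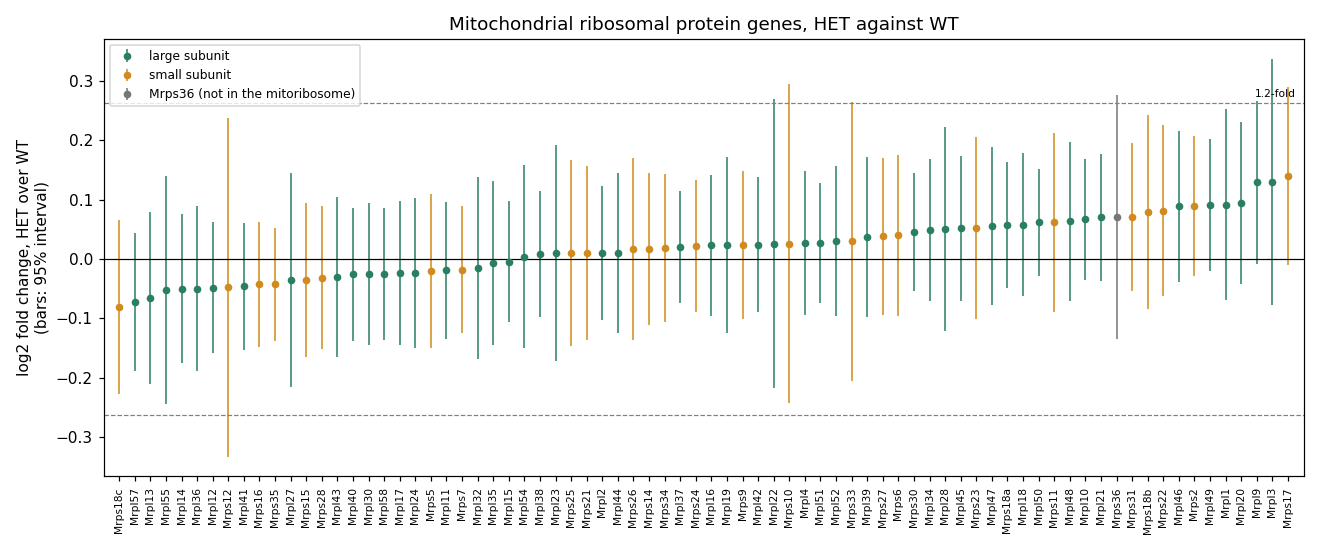
Log2 fold change, HET over WT, of 76 genes in rising order (points, coloured by subunit; bars are 95% intervals; dashed lines mark 1.2-fold). All intervals hold 0, and points lie between -0.08 and 0.14.

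Positive log2 fold changes were the more frequent sign, in 50 of 76 members against 48.5% of all genes, with a median of 0.02 for members and -0.0038 for all genes. Large-subunit genes (31 of 49 positive, median 0.02) and small-subunit genes (18 of 26, median 0.02) had equal medians at this rounding. Genes named after bacterial homologues were positive in 25 of 45 (median 0.01) and those named as mitochondria-specific in 24 of 30 (median 0.03). Mrps18a and Mrps18b were among the positive genes of the latter class. This sign count depended on scaling: with library size alone, 25 of 76 members were positive, and the median was -0.02 for members and -0.05 for all genes. Without WT replicate 3 the members' median was 0.0013, and without HET replicate 3 it was 0.0416.

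Neither marker gene separated the genotypes. Mrpl12 (ENSMUSG00000039640; GRCm38, chr11:120484613-120489065, plus strand, 5 exons) had 180.7, 174.2, 170.3 and 167.8 CPM in HET, against 173.2, 180.6, 172.3 and 190.5 CPM in WT libraries. The groups overlapped, HET replicate 4 being the lowest and WT replicate 4 the highest value. Its log2 fold change was -0.05 (95% interval -0.16 to 0.06; adjusted p = 0.848, edgeR with Benjamini-Hochberg adjustment). Mrps15 (ENSMUSG00000028861; chr4:126046925-126055532, plus strand, 8 exons), which encodes the rRNA-binding uS15m of the small subunit, had 47.4, 53.8, 48.1 and 51.9 CPM in HET, against 49.0, 51.5, 50.02 and 55.7 CPM in WT. These groups overlapped too, and the log2 fold change of -0.04 (interval -0.17 to 0.10) turned to 0.0038 without WT replicate 4 and to 0.0215 with shared title digits as covariate.

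Among genes with higher HET means, Mrpl9, Mrps17, Mrpl49, Mrps2 and Mrpl46 had the smallest p. Mrpl9 (bL9m; ENSMUSG00000028140; chr3:94443318-94451130, plus strand) had 79.9, 66.1, 76.3 and 72.4 CPM in HET, against 65.3, 65.9, 71.5 and 66.7 CPM in WT libraries. HET replicate 2 lay within the WT range and the other 3 HET values above it, and the log2 fold change was 0.13 (SE 0.062, adjusted p = 0.770, edgeR with Benjamini-Hochberg adjustment). Mrps17 (uS17m, whose bacterial counterpart binds rRNA early in assembly) had 51.3, 46.5, 47.1 and 42.9 CPM in HET, against 40.2, 40.6, 42.6 and 47.0 CPM in WT. Only WT replicate 4 exceeded any HET value, and the log2 fold change was 0.14 (SE 0.068, adjusted p = 0.770, edgeR). Mrpl49 (mL49), Mrps2 (uS2m) and Mrpl46 (mL46) each had a log2 fold change of 0.09, with groups that overlapped.

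Lower HET means were of smaller size. Mrps18c, Mrpl57 and Mrpl13 (uL13m) had log2 fold changes of -0.08, -0.07 and -0.07, Mrpl12 had -0.05, and Mrps35 (mS35) had -0.04. The adjusted p of these 5 lay between 0.791 and 0.848 by edgeR with Benjamini-Hochberg adjustment.

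Groups did not overlap in CPM for only 2 members, 1 in each direction. For Mrpl50 (mL50, mitochondria-specific; ENSMUSG00000044018; chr4:49512596-49521093, minus strand), HET libraries had 62.2, 60.8, 60.5 and 61.8 CPM, against 59.4, 59.7, 56.8 and 59.2 CPM in WT libraries. Every HET value stood above every WT value, by a mean of 61.3 ± 0.78 against 58.8 ± 1.3 CPM (SD, n = 4 each), with a log2 fold change of 0.06 (SE 0.041, adjusted p = 0.773, edgeR). This was 1 of 76 members, and 1.7% of all genes had HET above WT without overlap. For Mrpl57 (mL63; ENSMUSG00000021967; chr14:57826234-57829296, plus strand), HET libraries had 24.5, 24.2, 22.6 and 24.0 CPM, against 24.5, 24.8, 24.9 and 26.0 CPM in WT libraries. The highest HET and the lowest WT value were equal at this rounding, and the log2 fold change was -0.07 (SE 0.053, adjusted p = 0.791, edgeR). This too was 1 of 76, beside 2.08% of all genes with HET below WT. The separation of Mrpl50 was lost with library-size or upper-quartile scaling.

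The members of largest spread had overlapping genotypes. Over 8 libraries the SD of log2 CPM was 0.032 (Mrpl37) to 0.20 (Mrps12), with a median of 0.076 for members and 0.097 for the 8474 genes at 10 CPM or more; 59 of 76 members lay below that of all these genes. Counting error alone gives a median SD of 0.036 for members. The comparison was not matched for level: members had a median of 42.3 CPM, and the compared genes began at 10 CPM. Mrps12 (uS12m, at the decoding centre) had 36.3, 35.2, 26.7 and 27.0 CPM in HET, against 27.3, 36.4, 34.9 and 30.8 CPM in WT. The high values (HET replicates 1 and 2, WT replicates 2 and 3) and the low ones (HET replicates 3 and 4, WT replicate 1) each came from both genotypes. Mrpl3 (uL3m, near the peptidyl transferase centre) had 77.0, 91.2, 91.7 and 90.3 CPM in HET, against 95.7, 75.9, 77.2 and 71.3 CPM in WT. HET replicate 1 and WT replicate 1 each stood away from their own group; without WT replicate 1 the log2 fold change was 0.23 (adjusted p = 0.563, edgeR with Benjamini-Hochberg adjustment), against 0.13 with all libraries. Mrps10 ranged from 16.3 to 21.3 CPM in HET and from 16.0 to 21.5 CPM in WT. Mrpl22 (uL22m, lining the peptide tunnel) ranged from 14.8 to 18.5 CPM in HET and from 12.9 to 18.2 CPM in WT.

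Members moved together from library to library, with both genotypes on the high and on the low side. The first principal component held 37.8% of the variance of their log2 CPM, with 70 of 76 genes of the same sign on it. Median deviation from each gene's own mean (log2) was 0.04, 0.03, -0.04 and 0.00 in HET, against -0.04, 0.03, -0.07 and 0.06 in WT libraries. The highest and lowest medians were both WT, in replicates 4 and 3. WT replicates 3 and 1 had 66 and 59 of 76 members below their own mean, and each held the lowest value of 22. HET replicate 1 held the highest value of 20 and WT replicate 4 that of 19. Both subunits had these extremes, at -0.07 for large and -0.07 for small subunit genes in WT replicate 3 and 0.06 and 0.05 in WT replicate 4.

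**Figure D3:**
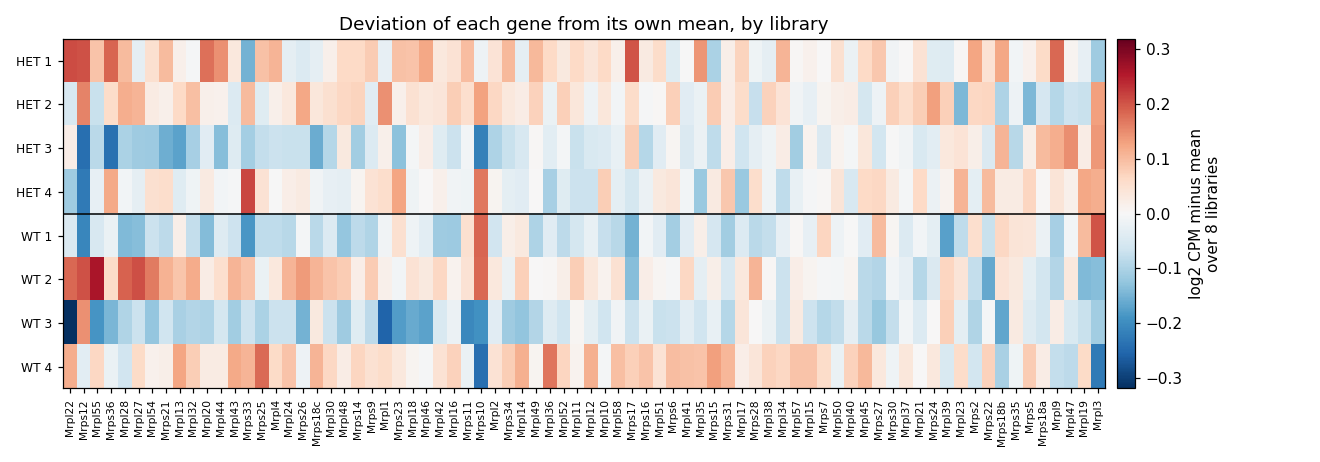
Deviation of log2 CPM from the gene's mean over 8 libraries (colour), libraries in rows with HET above WT, genes in columns ordered along the first principal component. Most columns are blue in HET replicate 3, WT replicate 1 and WT replicate 3, with 54, 59 and 66 of 76 genes below their own mean. Mrpl3, at the far right, has the sign opposite to the members' median in HET replicates 1 and 3 and in WT replicates 1, 2 and 4, though not in WT replicate 3.

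Short genes as a whole deviated with the same sign as the members in 7 of 8 libraries. Mitoribosome genes are short, with a median exon length of 2394 bases, and among genes at 10 CPM or more the quartile of shortest exons, at most 3090 bases, had a median deviation (log2) of 0.01, 0.02, -0.03 and -0.01 in HET and -0.03, 0.03, -0.03 and 0.04 in WT libraries. Genes of at least 7389 exon bases had -0.00, -0.01, 0.05 and 0.02 in HET and 0.02, -0.04, 0.03 and -0.06 in WT, opposite in sign to the short genes in 8 of 8 libraries. The part of this shift, and of the low mitochondrially encoded share and high immune marker share of WT replicate 3, in the members' values was not tested. As a sum, members took 0.380% to 0.402% of counts in HET and 0.391% to 0.415% in WT libraries.

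**Figure D4:**
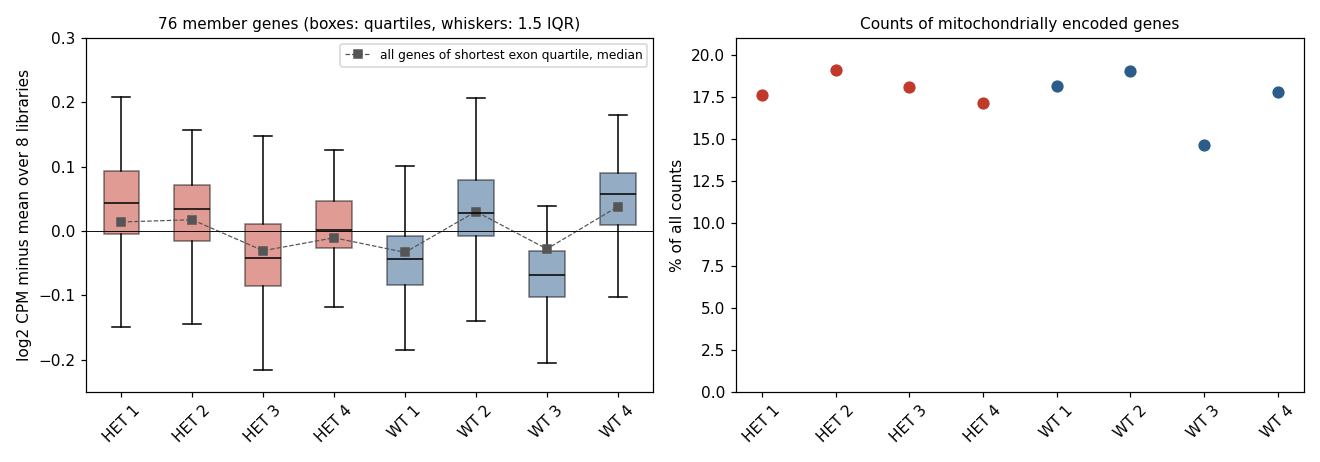
Left, deviation of the 76 genes from their own means (log2 CPM) in each library as boxes (line, median; box, quartiles; whiskers, 1.5 interquartile ranges), HET in red left of WT in blue, with the median of all genes of the shortest exon quartile as squares. Right, share of counts from mitochondrially encoded genes; medians and squares share their sign in 7 of 8 libraries, and WT replicate 3 has the lowest box (-0.07) and the lowest share (14.7%).

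The Mrps18 genes form a family of 3 that descend from the same bacterial protein bS18 and occupy different places in the ribosome. Mrps18a (mL66, large subunit) had 68.2, 63.1, 70.2 and 65.6 CPM in HET, against 64.6, 62.7, 62.8 and 66.5 CPM in WT. Mrps18b (mS40, small subunit) had 21.4, 18.3, 21.1 and 20.0 CPM in HET, against 20.5, 20.2, 17.5 and 18.3 CPM in WT. Mrps18c (bS18m, at the ancestral site) had 21.7, 22.7, 19.8 and 21.9 CPM in HET, against 20.8, 23.8, 22.6 and 23.8 CPM in WT. All 3 pairs of groups overlapped, and the log2 fold changes were 0.06 (SE 0.048), 0.08 (SE 0.074) and -0.08 (SE 0.066). Per length, over 8 libraries, Mrps18c stood at 20.6, Mrps18a at 17.7 and Mrps18b at 9.40. With the longest transcript as length these were 27.0, 29.5 and 18.2, so the order of Mrps18c and Mrps18a depends on the gene model.

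Mrpl53 was the only member not tested. It had 0, 0, 1 and 0 counts in HET, against 1 count in each WT library, all under the 3 counts taken as the floor. Of its 790 exon bases, 695 are shared on the same strand with Gm42688, an annotated gene that had 146 to 186 counts in HET and 162 to 192 in WT libraries, so reads of Mrpl53 and Gm42688 cannot be told apart here. Nearly the reverse held for Mrps34, which shares 763 exon bases with Nme3. Mrps34 had 1734 to 2140 counts in HET and 2019 to 2227 in WT libraries, and Nme3 had 0 in every HET and at most 1 in WT libraries. In all, 32 of 77 members share exon bases with another gene, 28 of them on the opposite strand and 7 on the same strand, some on both. Counts of the 28 are uncertain to that extent because the strand setting of the counting is not given in the sources used here. On the same strand, no strand setting would separate the genes. Over 50% of exon bases were shared in 3 members, Mrpl53, Mrps34 and Mrps25, the last with 4590 of 6576 bases shared with Nr2c2 on the opposite strand.

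The genes facing mitoribosome genes did not follow a common direction. Of 29 partners tested, 3 (10.3%, against 6.38% of all genes) had an unadjusted p below 0.05 and none an adjusted one: Rab6a, a Golgi GTPase facing Mrpl48, with a log2 fold change of 0.13, Eme2, a DNA repair endonuclease subunit facing Mrps34, with -0.31, and Ska3, a kinetochore protein facing Mrpl57 from 49 bases away, with -1.34. These 3 were chosen after their values were seen. Ska3 was at the edge of detection, at 0.19, 0.12, 0.13 and 0.084 CPM in HET, against 0.29, 0.35, 0.36 and 0.36 CPM in WT libraries (adjusted p = 0.770, edgeR with Benjamini-Hochberg adjustment). All HET values stood below all WT values in Ska3 and in Eme2, 2 of 29 partners, beside 2.08% of all genes. In the other direction, Ptcd2, facing Mrps27, had all HET values (58.9 to 62.1 CPM) above all WT values (56.1 to 58.3 CPM), beside 1.7% of all genes. Mrpl46 and Mrps11, which face each other and overlap by 173 exon bases, had log2 fold changes of 0.09 (SE 0.058) and 0.06 (SE 0.068).

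Other genes of mitochondrial translation were read from lists, and no gene in any of them passed an adjusted p of 0.05 over all genes. Of 5 mitoribosome proteins under other symbols, 3 had positive log2 fold changes, with a median of 0.00. Ptcd3 (mS39), which helps mRNA onto the small subunit, had 126.8, 116.2, 119.9 and 122.3 CPM in HET, against 116.6, 112.3, 99.9 and 106.2 CPM in WT libraries. Only WT replicate 1 reached a HET value, and the log2 fold change was 0.16 (SE 0.057, adjusted p = 0.770, edgeR). Dap3 (mS29, a GTP-binding protein of the small subunit) had 0.04 (SE 0.050). Among 24 factors of mitoribosome assembly and rRNA modification, 15 were positive, with a median of 0.03 and none at an unadjusted p below 0.05. Gtpbp10, a GTPase of large-subunit assembly, had 9.41, 10.11, 9.996 and 10.1 CPM in HET, against 8.70, 9.33, 8.85 and 8.86 CPM in WT, groups that did not overlap (log2 fold change 0.15, SE 0.070). This was 1 of 24, beside 1.7% of all genes with HET above WT without overlap. Noa1, a GTPase of mitoribosome assembly, had a log2 fold change of 0.09 (SE 0.059).

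Factors that act on the ribosome or feed it showed similar small values. Of 16 translation factors and mRNA-handling proteins, 11 were positive (median 0.02), and 2 of 16, against 6.38% of all genes, had an unadjusted p below 0.05: Taco1, the translational activator of Cox1, at 0.18 (SE 0.070), and the initiation factor Mtif2, whose groups did not overlap, at 0.13 (SE 0.053), each with an adjusted p of 0.770 by edgeR with Benjamini-Hochberg adjustment. Of 20 genes for aminoacyl-tRNA synthesis, 14 were positive (median 0.04). Iars2, the isoleucyl-tRNA synthetase, had 162.6, 160.2, 155.4 and 161.2 CPM in HET, against 140.5, 152.1, 139.2 and 137.1 CPM in WT. Its groups did not overlap, with a log2 fold change of 0.17 (SE 0.048, adjusted p = 0.770, edgeR with Benjamini-Hochberg adjustment). Mtif2 and Iars2 were each the only gene of their list without overlap, 1 of 16 and 1 of 20, beside 1.7% of all genes higher in HET. Qrsl1, of the glutamyl-tRNA amidotransferase, had 0.15 (SE 0.072). Of 9 genes of mitochondrial transcription and DNA maintenance, 8 were positive (median 0.05). The smallest p were those of Twnk, at 0.13 (SE 0.060), and of the elongation factor Tefm, the negative one of the list, at -0.14 (SE 0.068). Polg, at 0.07 (SE 0.042), was the only 1 of the 9 whose groups did not overlap. Of 10 regulators of mitochondrial biogenesis, 7 were positive (median 0.04), and the GABP beta subunits Gabpb2 and Gabpb1 had the smallest p, at -0.11 (SE 0.068) and -0.10 (SE 0.061).

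What the mitoribosome reads and is built on was measured in part. Of 13 mitochondrially encoded mRNAs, 7 were tested and 6 of these were positive (median 0.07). mt-Nd2 had a log2 fold change of 0.14 (SE 0.084) and mt-Co1 0.12 (SE 0.080). Both were lowest in WT replicate 3, at 12548 and 44581 CPM. The other 6 mRNAs (mt-Nd3, mt-Nd4l, mt-Co2, mt-Co3, mt-Atp6 and mt-Atp8) had at most 5 counts in any library. These 6 were in effect not measured, and they add almost nothing to the share of mitochondrially encoded genes given above. Whether they were low in the tissue or lost in mapping or counting was not tested. The rRNAs mt-Rnr2 and mt-Rnr1 had log2 fold changes of 0.12 (SE 0.11) and 0.00 (SE 0.12), the sign of mt-Rnr1 turning with scaling and with the libraries used; poly(A) selection limits what these values say of rRNA.

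**Figure D5:**
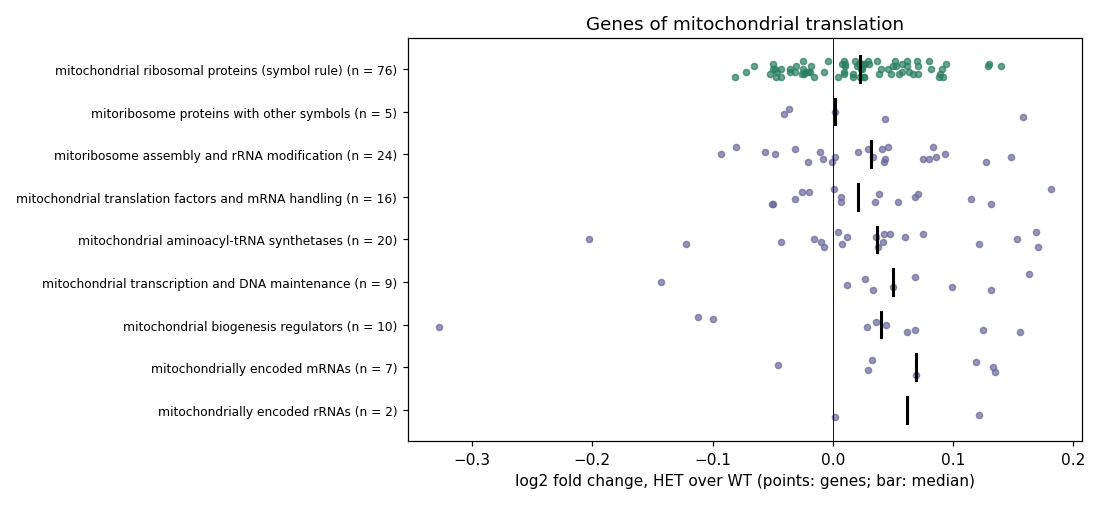
Log2 fold change, HET over WT, of single genes (points) with list medians (bars), the 76 mitochondrial ribosomal protein genes at the top. List medians lie between 0.00 and 0.07, and members spread less, from -0.08 to 0.14, than the genes of several other lists. The lists were not matched for level: Myc, the lowest point at -0.33, had 2.6 to 6.5 CPM. Taco1, the highest at 0.18, had 40.9 to 55.3 CPM.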

How the data were processed

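The authors deposited raw read counts per Ensembl gene, whole numbers for 38293 genes in 8 columns, made, per the labels' protocols, from Trizol-extracted RNA with a stranded TruSeq poly(A) kit. STAR 2.4.2a, HTSeq 0.6.1 and the build GRCm38/mm10 are named per the submitters' processing notes; the annotation release and strand setting are not given in the sources used here. Symbols, exons and positions were taken from GENCODE release M21, which gave a symbol for 36345 genes.

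Groups came from the genotype labels, and replicates were numbered in order of deposition, so that the numbers pair nothing. Low counts were removed with filterByExpr (14567 genes left), libraries were scaled by TMM, and HET was compared with WT by edgeR's quasi-likelihood test (robust, no covariate; edgeR 4.0.16, R 4.3.3) with Benjamini-Hochberg adjustment over all genes tested. The common coefficient of biological variation was 0.143, and the fit was tested on simulated data. CPM and levels per length use TMM-scaled library sizes; length is the union of exons. Standard errors and 95% intervals come from the same fit.

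Members and lists were chosen with earlier results of these data known. Named members are the 2 markers, the 5 of smallest p in each direction, those whose groups do not overlap, the 5 of highest and 5 of lowest level per length, the 4 of largest SD, the Mrps18 genes and those not tested; in each other list, the 2 genes of smallest p. Alternatives were scaling by RLE, by upper quartile or by library size alone, no filter, a filter of 1 CPM in 4 samples, DESeq2 1.42.0, limma-voom (limma 3.58.1), shared title digits as covariate, leaving out each sample, and the longest transcript as length. Rows of pseudogenes with Mrpl or Mrps symbols, 4 in all, were left out by the symbol rule.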

Additional observations from a re-analysis of the deposited data

Results flagged for a closer look

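In 3 of 86 gene and genotype combinations looked at, a single library of the 4 stood far from the others relative to the range of its group, and chance alone does so in about 1 in 20 groups. Mrpl3 had 77.0 CPM in HET replicate 1, against 90.3 to 91.7 CPM in the other HET libraries. Gtpbp10 had 9.41 CPM in HET replicate 1, against 9.996 to 10.1 CPM in the other HET libraries. Pkp2 had 148 CPM in WT replicate 3, against 166 to 169 CPM in the other WT libraries. Mrpl3 and Gtpbp10 had their lowest HET value in the library in which 20 mitoribosome genes had their highest value.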

How the results depend on the processing

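No member passed an adjusted p of 0.05 in any of the 16 alternatives, beside 1 to 13 genes of all, the most with DESeq2. At an unadjusted p below 0.05, limma-voom gave 1 member (Mrpl9), beside 1176 of 14567 genes, and no filter 1 (Mrps17), beside 1203 of 22955. Leaving out a library gave 0 to 2 (Mrpl3, Mrpl9, Mrps2, Mrps17 or Mrps31). The count over all genes then ran from 531 of 14736 without HET replicate 3 to 1241 of 14698 without WT replicate 1. Members with groups that did not overlap numbered 1 with no filter (Mrpl50), and 2 to 5 with a library left out, 4 of them without HET replicate 3 and 5 without WT replicate 4. With library-size scaling they were Mrpl57, Mrpl15 and Mrps16, and with upper-quartile scaling Mrpl57 and Mrps35. The share over all genes is not given for these settings, and smaller groups separate more readily. Positive log2 fold changes fell to 25 with library-size scaling and were 39 to 58 with a library left out, and the median log2 fold change then ran from 0.0013 to 0.0416. The median level per length was 28.0 with the longest transcript. Of 688 pairs of a named gene and an alternative (43 genes), 43 turned sign, in 10 genes, and none crossed the threshold. With library-size scaling Mrpl2 turned to -0.032, Mrpl22 to -0.0145, Mrpl23 to -0.0331, Mrps10 to -0.0136 and mt-Rnr1 to -0.037. With upper-quartile scaling Mrpl2 turned to -0.0063, Mrpl23 to -0.0079 and mt-Rnr1 to -0.0158. With limma-voom Mrpl22 turned to -0.0019 and mt-Rnr1 to -0.0517, and with the 1 CPM filter mt-Rnr1 turned to -0.0023. With title digits as covariate Mrpl23 turned to -0.0145, Mrpl32 to 0.0463, Mrps10 to -0.0008, Mrps12 to 0.0924, Mrps15 to 0.0215 and Mrps18b to -0.0017. With a library left out, Mrpl2 ran from -0.0102 to 0.0433, Mrpl22 from -0.0676 to 0.0945, Mrpl23 from -0.0232 to 0.0553, Mrpl32 from -0.0505 to 0.0233, Mrps10 from -0.045 to 0.0982, Mrps12 from -0.127 to 0.0218, Mrps15 from -0.0689 to 0.0038, Mrps5 from -0.0435 to 0.0216 and mt-Rnr1 from -0.0933 to 0.0785. The causes were not tested. The title digits used as covariate are shared by 3 HET titles and 1 WT title; that fit gave 563 genes of all at an unadjusted p below 0.05, against 930 without. No paired analysis was possible because no label pairs a HET sample with a WT sample.

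With 4 samples a group and 250 or more counts per library, changes beyond 1.5-fold lay outside the 95% interval of each of the 76 members tested; Mrpl53 has no interval. Members share exon bases with other genes, exon length limits comparison of levels between genes, and bulk ventricle mixes cell types.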
